A study of Arabidopsis thaliana with 14 samples.

Results

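The 39 Arabidopsis loci described here share one expression pattern: their transcripts were higher with DTT in the CSN8 mutant and rose little or not at all in the wild type Wassilewskija. The reference gene table used here gives them no symbol beyond the locus identifier. A locus was taken when a probe set annotated to it alone was at least 1 log2 higher in CSN8 + DTT than in CSN8 in both batches, while Wassilewskija + DTT minus Wassilewskija stayed under 0.5 log2 in both batches. They are 39 of 11798 loci without a symbol that had a single-gene probe set, and each was measured by 1 probe set. All 39 are described; no filter on low values was applied. The members were thus selected on the measured DTT changes of CSN8 and Wassilewskija, so these changes, and every difference between those 8 arrays, are given as a description without a test.

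RNA from whole 12-day-old seedlings was hybridised to 14 Affymetrix arrays, which report 1 log2 expression level per probe set. The groups were CSN8 + DTT, CSN8, Wassilewskija + DTT and Wassilewskija, with 1 array in batch 1 and 1 in batch 2 each, and csn5a-1 and Columbia with 3 biological replicates each. CSN8 and csn5a-1 are labelled as mutants, and Wassilewskija and Columbia as wild types, the 2 accessions of the study; the labels give neither the mutant alleles' structure nor the accession in which CSN8 was made. Plates of agar medium were kept in cycles of 16 h light and 8 h darkness for all groups. DTT is read here as dithiothreitol; the sources used here state neither its dose nor its duration, and the shared protocol text speaks of no added treatment for any sample. The labels call the csn5a-1 and Columbia arrays biological replicates, and for the batches they do not say whether plants were grown separately.

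The COP9 signalosome regulates cullin-based ubiquitin ligases by taking the small modifier RUB off the cullin; CSN5A holds the catalytic centre of the complex and CSN8 is another of its subunits. Dithiothreitol breaks disulfide bonds and so disturbs protein folding in the endoplasmic reticulum, which sets off the unfolded protein response. In plants that response raises chaperones, folding enzymes and the machinery that degrades misfolded proteins.

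Among genes of the unfolded protein response levels were higher with DTT in both genotypes, in arrays that also chose the loci. Of a list of 35 loci, 11 were matched by annotation to a probe set, 12 probe sets in all. Of these 12, 8 were at least 1 log2 higher with DTT in both batches in CSN8 and 8 in Wassilewskija. The median changes of the 12 were 2.06 in CSN8 and 2.09 in Wassilewskija. Over all 22746 probe sets tested, 1.60% reached that size in CSN8 and 0.523% in Wassilewskija. None of the 39 loci belongs to that list, and none of the list's probe sets met the thresholds by which the 39 were chosen.

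In total 100 probe sets, 0.440% of those tested, met both thresholds. Of these, 53 have no gene in the annotation used here, 2 match several genes, 6 match a gene with a symbol and 39 are the loci described here. With the genotypes exchanged (at least 1 log2 higher in Wassilewskija, under 0.5 in CSN8) 6 probe sets qualified, 0.0264%, of which 2 were loci without a symbol. Another 37 loci without a symbol were at least 1 log2 higher with DTT in all 4 pairs of arrays. With 1 batch the count was larger: batch 1 alone gave 320 loci and batch 2 alone 76, and the 39 are those that met the thresholds in both.

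The change with DTT in CSN8 ranged over the 39 loci from 1 to 5.33 log2 in batch 1 (median 2.05) and from 1.01 to 3.61 in batch 2 (median 1.37). In Wassilewskija the median was 0.01 in batch 1 and 0.3 in batch 2. There the change was positive in both batches for 17 loci (28.9% of all probe sets), negative in both for 4 (27.9%), and of opposite sign in the batches for 18 (43.1%). In CSN8 the change was larger in batch 1 for 30 of the 39 loci, against 11367 of all 22746 probe sets. The level was higher in batch 1 than in batch 2 for 35 loci in CSN8 + DTT (46.6% of all probe sets), 22 in CSN8 (47.2%), 19 in Wassilewskija + DTT (52.1%) and 26 in Wassilewskija (46.3%). The median level of the loci in batches 1 and 2 was 7.69 and 7.09 in CSN8 + DTT, 5.46 and 5.56 in CSN8, 6.63 and 6.6 in Wassilewskija + DTT, and 6.74 and 6.43 in Wassilewskija. The arrays of both batches chose the loci, so these values are a description.

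**Figure D1:**
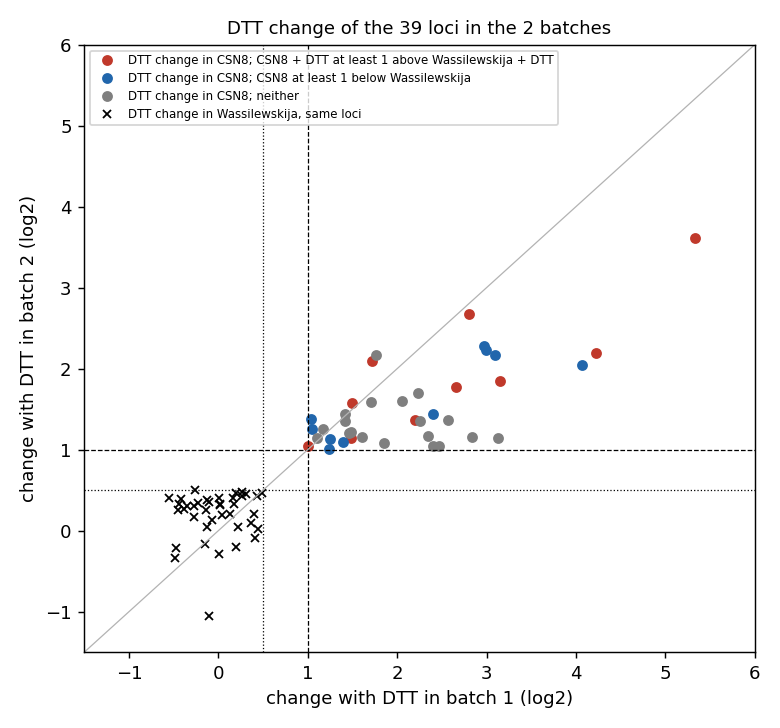
Change with DTT (log2) in batch 1 against batch 2 for each of the 39 loci, in CSN8 (dots, coloured by the group the locus falls in) and in Wassilewskija (crosses); dashed and dotted lines mark the thresholds of 1 and 0.5, and the grey line equal change. The dots lie mostly below the grey line, with 30 of 39 changes in CSN8 larger in batch 1.

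The CSN8 array of batch 1 stood apart in 1 of 3 RNA quality controls. The difference between the 3′ and 5′ GAPDH controls (log2), which grows when RNA is degraded, was 0.49 and 0.25 in CSN8 + DTT (batches 1 and 2), 1.67 and 0.28 in CSN8, 0.54 and 0.53 in Wassilewskija + DTT and 0.62 and 0.47 in Wassilewskija. The same array was at 4.28 for actin, where the other 7 had 3.22 to 4.15, and at 1.21 for ubiquitin, within the 0.94 to 1.47 of the others. The thresholds were also met in batch 2, without that CSN8 array, by all 39 loci, as the rule requires. Root, seed, flower and photosynthetic tissue markers were thinly covered. Of their loci 2 of 8, 2 of 13, 0 of 5 and 0 of 3 were matched to a probe set annotated to 1 gene. The annotation used here gave no gene for 8730 of 22746 probe sets, so an unmatched locus may still be on the array. The 2 root genes, EXPA7 and EXPA18, had a median level of 4.06 and 4.26 in CSN8 + DTT, 4.93 and 5.75 in CSN8, 4.47 and 4.88 in Wassilewskija + DTT, and 6.23 and 6.29 in Wassilewskija. The late embryo genes LEA4-5 and M17 differed in direction between batches, with a median change with DTT in CSN8 of -1.55 in batch 1 and 1.71 in batch 2. M17 was at 2.59 and 7.98 in CSN8 + DTT and at 4.8 and 5.34 in CSN8. In Wassilewskija M17 was at 2.4 and 8.65 with DTT and at 3.14 and 8.8 without, so its batches differed in both states. LEA4-5 lay between 6.02 and 7.07 in the 8 arrays. The late embryo and root genes were measured beside the loci, and their part, like that of the RNA quality, was not tested. Fewer cells of a type and less RNA per cell cannot be told apart in whole seedlings.

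The loci reached the same DTT pattern from different starting levels, and 2 groups were set apart after their values were seen, by a difference of at least 1 log2 between genotypes in both batches. In 10 loci CSN8 + DTT was above Wassilewskija + DTT by that size. In another 10, CSN8 was below Wassilewskija by that size without DTT. No locus was in both groups, and 19 were in neither. Over all probe sets 2.27% and 2.77% met these 2 size criteria; since the rule adds the CSN8 + DTT arrays and subtracts the CSN8 arrays, the counts are not read against those shares.

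**Figure D2:**
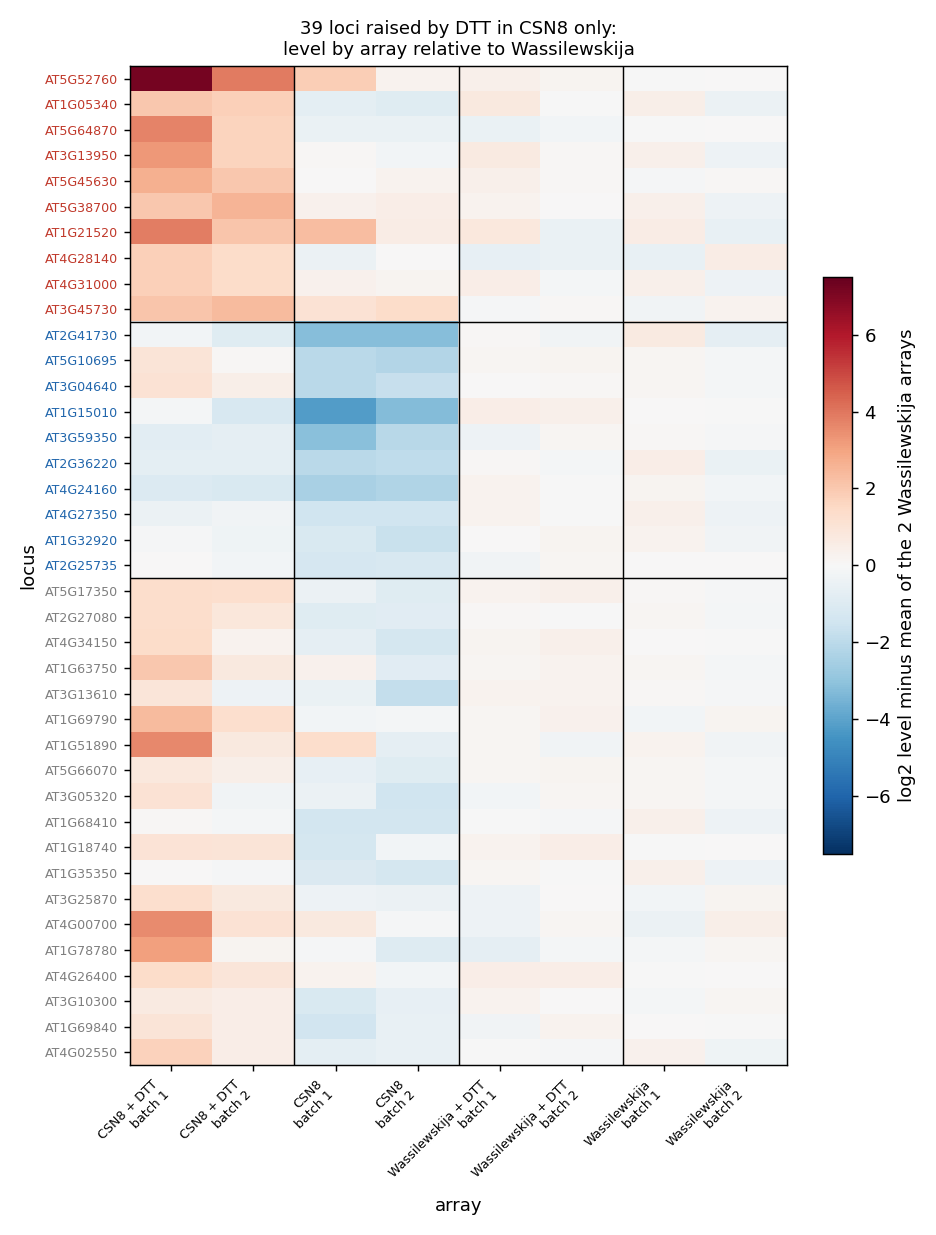
Log2 level of each of the 39 loci (rows) in each of the 8 arrays (columns) minus the mean of the 2 Wassilewskija arrays, red above and blue below. The upper block (10 loci) is red in CSN8 + DTT. The middle block (10 loci) is blue in CSN8 without DTT and mostly less blue in CSN8 + DTT, where AT3G04640 and AT5G10695 were above the Wassilewskija mean. In that block AT4G24160 stayed at least 1 log2 below Wassilewskija + DTT in both batches. The lower block holds the other 19.

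Most loci of the group in which CSN8 + DTT was above the wild type were at low levels in the other arrays. In this group of 10 the median levels in batches 1 and 2 were 6.5 and 5.78 in CSN8 + DTT, 3.98 and 3.86 in CSN8, 3.84 and 3.76 in Wassilewskija + DTT, and 3.85 and 4.08 in Wassilewskija. For comparison, the mean level over the 8 arrays had a median of 5.33 over all probe sets. The largest change of all 39 was that of AT5G52760. Its levels, batch 1 before batch 2 here and in all values below, were 9.46 and 6.17 in CSN8 + DTT, 4.13 and 2.56 in CSN8, 2.67 and 2.52 in Wassilewskija + DTT, and 2.27 and 2.31 in Wassilewskija. It was thus low in Wassilewskija, with and without DTT, and in CSN8 of batch 2. The CSN8 array of batch 1 was already higher, and both CSN8 + DTT arrays were above the other 6.

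AT5G64870 was flat in 3 groups and high in the fourth, at 7.69 and 5.64 in CSN8 + DTT, 3.46 and 3.45 in CSN8, 3.49 and 3.77 in Wassilewskija + DTT, and 3.96 and 3.98 in Wassilewskija. Its change with DTT was 4.23 and 2.19 in CSN8 and -0.47 and -0.21 in Wassilewskija. AT3G13950 had a similar course, at 6.57 and 4.99 in CSN8 + DTT, 3.42 and 3.14 in CSN8, 4.02 and 3.41 in Wassilewskija + DTT, and 3.72 and 2.95 in Wassilewskija. For both loci the CSN8 + DTT array of batch 1 was the highest and that of batch 2 the second highest.

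AT5G45630 was low in 3 groups, at 5.29 and 4.63 in CSN8 + DTT, 2.63 and 2.86 in CSN8, 2.97 and 2.72 in Wassilewskija + DTT, and 2.53 and 2.7 in Wassilewskija. AT5G38700 stood at 4.95 and 5.47 in CSN8 + DTT, 3.24 and 3.37 in CSN8, 3.15 and 2.9 in Wassilewskija + DTT, and 3.28 and 2.52 in Wassilewskija, and is 1 of the loci with the larger change in batch 2. Neither locus gave overlapping arrays between CSN8 + DTT and the other 3 groups. AT4G28140 is the locus with the most negative change in Wassilewskija in a single batch, -1.05 in batch 2 against -0.1 in batch 1, and changed by 2.2 and 1.37 in CSN8. AT4G31000 changed by 1.48 and 1.15 in CSN8.

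AT1G05340 belongs to this group from a high level, at 10.52 and 10.24 in CSN8 + DTT, 7.72 and 7.57 in CSN8, 9.18 and 8.46 in Wassilewskija + DTT, and 8.92 and 8.03 in Wassilewskija. Without DTT its CSN8 arrays were the lowest of the 8, and with DTT the highest. The other pair, AT1G21520 and AT3G45730, were higher in CSN8 than in Wassilewskija without DTT as well. AT1G21520 had 8.84 and 7.13 in CSN8 + DTT, 7.34 and 5.56 in CSN8, 5.8 and 4.51 in Wassilewskija + DTT, and 5.58 and 4.47 in Wassilewskija. AT3G45730 had 6.43 and 6.72 in CSN8 + DTT, 5.42 and 5.68 in CSN8, 4.24 and 4.41 in Wassilewskija + DTT, and 4.04 and 4.61 in Wassilewskija. They are the 2 loci of the 39 with CSN8 at least 1 log2 above Wassilewskija in both batches without DTT (1.99% of all probe sets).

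In the group of 10 in which CSN8 was below the wild type, levels in CSN8 + DTT were mostly close to those of Wassilewskija. The median levels were 8.95 and 8.59 in CSN8 + DTT, 6.26 and 6.33 in CSN8, 8.82 and 9 in Wassilewskija + DTT, and 9.04 and 8.64 in Wassilewskija. CSN8 minus Wassilewskija had a median of -2.02 in this group without DTT and of -0.48 with DTT.

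AT1G15010 had the widest gap, at 10 and 8.96 in CSN8 + DTT, 5.93 and 6.91 in CSN8, 10.62 and 10.51 in Wassilewskija + DTT, and 10.19 and 10.08 in Wassilewskija. CSN8 minus Wassilewskija was -4.26 and -3.17 without DTT and -0.62 and -1.55 with DTT, so the level with DTT stayed below the wild type in both batches. AT2G41730 was at 9.38 and 8.65 in CSN8 + DTT, 6.41 and 6.37 in CSN8, 9.68 and 9.33 in Wassilewskija + DTT, and 10.24 and 8.93 in Wassilewskija. Its probe set carries the manufacturer's suffix for probes that can also match other transcripts, so its value is less certain than the others. AT3G59350 was at 8.64 and 8.75 in CSN8 + DTT, 6.25 and 7.31 in CSN8, 9.05 and 9.57 in Wassilewskija + DTT, and 9.5 and 9.32 in Wassilewskija. All 3 loci had their CSN8 arrays below the other 6. The CSN8 + DTT arrays lay below all 4 arrays of Wassilewskija + DTT and Wassilewskija for AT1G15010 and AT3G59350, and overlapped them for AT2G41730.

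AT5G10695 and AT3G04640 were close to or above the Wassilewskija + DTT level in CSN8 + DTT. AT5G10695 was at 9.43 and 8.52 in CSN8 + DTT, 6.43 and 6.29 in CSN8, 8.6 and 8.67 in Wassilewskija + DTT, and 8.58 and 8.34 in Wassilewskija. AT3G04640 was at 8.79 and 8.12 in CSN8 + DTT, 5.69 and 5.95 in CSN8, 7.73 and 7.77 in Wassilewskija + DTT, and 7.87 and 7.52 in Wassilewskija, and is the only locus of this group whose CSN8 + DTT arrays were both above the other 6. In contrast AT4G24160 stayed lowest relative to the wild type, at 9.11 and 8.96 in CSN8 + DTT, 7.7 and 7.87 in CSN8, 10.35 and 10.11 in Wassilewskija + DTT, and 10.31 and 9.92 in Wassilewskija. It is the only one of the 39 loci with CSN8 + DTT at least 1 log2 below Wassilewskija + DTT in both batches. The remaining members of the group, AT2G36220, AT4G27350, AT1G32920 and AT2G25735, had mean changes with DTT in CSN8 of 1.19, 1.15, 1.21 and 1.13.

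The other 19 loci lay between these patterns. Their median levels were 7.68 and 7.09 in CSN8 + DTT, 5.46 and 5.19 in CSN8, 6.63 and 6.45 in Wassilewskija + DTT, and 6.74 and 6.11 in Wassilewskija. CSN8 minus Wassilewskija had a median of -0.77 without DTT and of 0.72 with DTT, so the median lay below the wild type without DTT and above it with DTT. AT5G17350 was at 7.16 and 7.09 in CSN8 + DTT, 5.4 and 4.92 in CSN8, 6.13 and 6.22 in Wassilewskija + DTT, and 5.93 and 5.75 in Wassilewskija, and AT2G27080 at 8.12 and 7.67 in CSN8 + DTT, 5.89 and 5.97 in CSN8, 6.91 and 6.8 in Wassilewskija + DTT, and 6.97 and 6.67 in Wassilewskija. In both, the CSN8 arrays were the lowest 2 of the 8 and the CSN8 + DTT arrays the highest 2.

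Several of the 19 were high mainly in the CSN8 + DTT array of batch 1. AT1G78780, the locus whose higher change in Wassilewskija lay furthest below 0 (-0.49 and -0.34), was at 7.58 and 4.71 in CSN8 + DTT, 4.45 and 3.56 in CSN8, 3.87 and 4.36 in Wassilewskija + DTT, and 4.35 and 4.7 in Wassilewskija. AT4G00700 was at 7.65 and 5.14 in CSN8 + DTT, 4.81 and 3.99 in CSN8, 3.68 and 4.22 in Wassilewskija + DTT, and 3.66 and 4.51 in Wassilewskija, and AT1G51890 at 7.32 and 4.46 in CSN8 + DTT, 5.07 and 3.09 in CSN8, 3.89 and 3.5 in Wassilewskija + DTT, and 4.02 and 3.45 in Wassilewskija. The CSN8 + DTT minus Wassilewskija + DTT difference of these 3 loci was 3.71, 3.97 and 3.44 in batch 1 and 0.34, 0.92 and 0.96 in batch 2.

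AT3G25870 changed by 1.61 and 1.16 in CSN8, against -0.15 and -0.17 in Wassilewskija, also below 0 in both batches. AT3G13610 is the only member for which the reference gene table lists a synonym other than clone names, F6'H1, an enzyme of the phenylpropanoid pathway that leads to the coumarin scopoletin. It was at 9.18 and 7.93 in CSN8 + DTT, 7.77 and 6.49 in CSN8, 8.53 and 8.54 in Wassilewskija + DTT, and 8.36 and 8.21 in Wassilewskija. Its CSN8 arrays were the lowest 2 of the 8, and with DTT the mutant was above the wild type in batch 1 and below it in batch 2. The others in this group were AT4G34150, AT1G63750, AT1G69790, AT5G66070, AT3G05320, AT1G68410, AT1G18740, AT1G35350, AT4G26400, AT3G10300, AT1G69840 and AT4G02550.

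Across the 39 loci, both CSN8 + DTT arrays were above the other 6 for 23 loci and both CSN8 arrays below the other 6 for 25, against 7.22% and 5.80% of all probe sets; these arrays chose the loci, so the counts are a description. The mean of the 2 DTT states was higher in CSN8 than in Wassilewskija by at least 1 log2 in both batches for 4 loci (2.09% of all probe sets) and lower by that size for 4 (2.69%), with a median over the 39 of 0.07. The 3 highest pooled differences were those of AT5G52760 (4.32 and 1.95 in batches 1 and 2), AT1G21520 (2.4 and 1.85) and AT3G45730 (1.79 and 1.69). The 3 lowest were those of AT1G15010 (-2.44 and -2.36), AT2G41730 (-2.07 and -1.62) and AT4G24160 (-1.92 and -1.6).

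**Figure D3:**
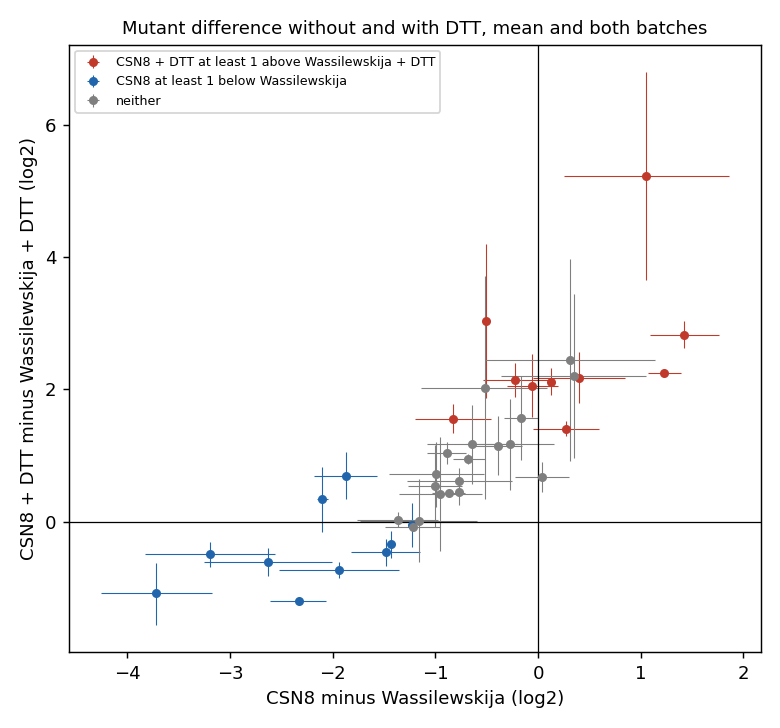
CSN8 minus Wassilewskija without DTT (horizontal axis, log2) against the same difference with DTT (vertical axis, log2) for the 39 loci; points are means of the 2 batches and bars reach to the value of each batch. Blue loci start at -1.23 or below without DTT and end between -1.2 and 0.7 with DTT, and red loci end at 1.41 or above.

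Several members lie close to the thresholds. AT3G45730 (1 and 1.04 in CSN8), AT2G25735 (1.24 and 1.01) and AT4G02550 (2.47 and 1.04) were just inside, and AT4G22820 (1.28 and 0.99), AT3G25600 (1.3 and 0.96) and AT3G21080 (3.16 and 0.96) just outside. On the side of the wild type AT1G32920 (-0.26 and 0.5 in Wassilewskija), AT4G26400 (0.49 and 0.46) and AT1G18740 (0.26 and 0.48) were just inside. AT3G19010 (-0.06 and 0.5), AT2G32030 (0.5 and 0.4) and AT2G28400 (0.46 and 0.52) were just outside, the first 2 by less than the rounding shown. In 16 of the 39 loci the smaller of the changes in CSN8 was under 1.2.

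The loci with a symbol that met the same thresholds were TET8, a tetraspanin, SAG101, a lipase-like partner of the immune regulator EDS1, CHI, a member of the chitinase family, CML23, a calmodulin-like protein, EXLA1, an expansin-like protein of the cell wall, and EXO (EXORDIUM), a protein that promotes growth in response to brassinosteroids. They are 6 of 1580 probe sets with a symbol. TET8 was at 11.77 and 11.15 in CSN8 + DTT, 9.23 and 9.11 in CSN8, 10.95 and 10.83 in Wassilewskija + DTT, and 10.86 and 10.63 in Wassilewskija, below the wild type without DTT and above it with DTT. SAG101 was at 6.8 and 5.62 in CSN8 + DTT, 4.73 and 4.37 in CSN8, 4.44 and 4.16 in Wassilewskija + DTT, and 4.21 and 3.81 in Wassilewskija, above the wild type mainly with DTT. Of the 16 loci in the list of salicylate and immune genes only SAG101 was matched to a probe set by annotation, so that pathway could not be described further.

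The loci are spread over the genome. All 39 are protein-coding in the reference gene table, and 12 lie on chromosome 1, 4 on chromosome 2, 8 on chromosome 3, 8 on chromosome 4 and 7 on chromosome 5, against 26.0%, 16.5%, 20.5%, 14.4% and 22.6% of the 11933 probe sets of loci without a symbol. The closest pair, AT1G69790 and AT1G69840, has 7 coding genes between them, and no other pair lies as close. Their genes span a median of 1631 bases in the assembly TAIR10.1, from 570 to 4614, against a median of 2090. The mean level over the 8 arrays had a median of 6.19 for the members (3.29 to 9.86), against 4.67 for all loci without a symbol. That mean includes the CSN8 + DTT arrays, which the rule requires to be raised, so it is a description.

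The comparison of csn5a-1 with Columbia used 6 arrays that had no part in choosing the loci, so it is the one test made on them. It asks whether these loci also differ in the mutant of the catalytic subunit, without DTT. In limma, with p-values adjusted over all 22746 probe sets, 18 of the 39 loci were higher in csn5a-1, 3 were lower and 18 did not pass. Over all probe sets 32.9% passed, 16.0% higher and 16.8% lower. The median change was 0.9 log2 over the 39 loci and -0.04 over all probe sets. Of the 39, 15 were higher by at least 1 log2 and past the threshold, against 5.83% of all probe sets, and 1 was lower by that size, against 5.68%. All 21 loci past the threshold had groups whose arrays did not overlap. So did 3641 of the 3649 higher and 3817 of the 3825 lower calls over all probe sets, so this adds little to the calls.

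**Figure D4:**
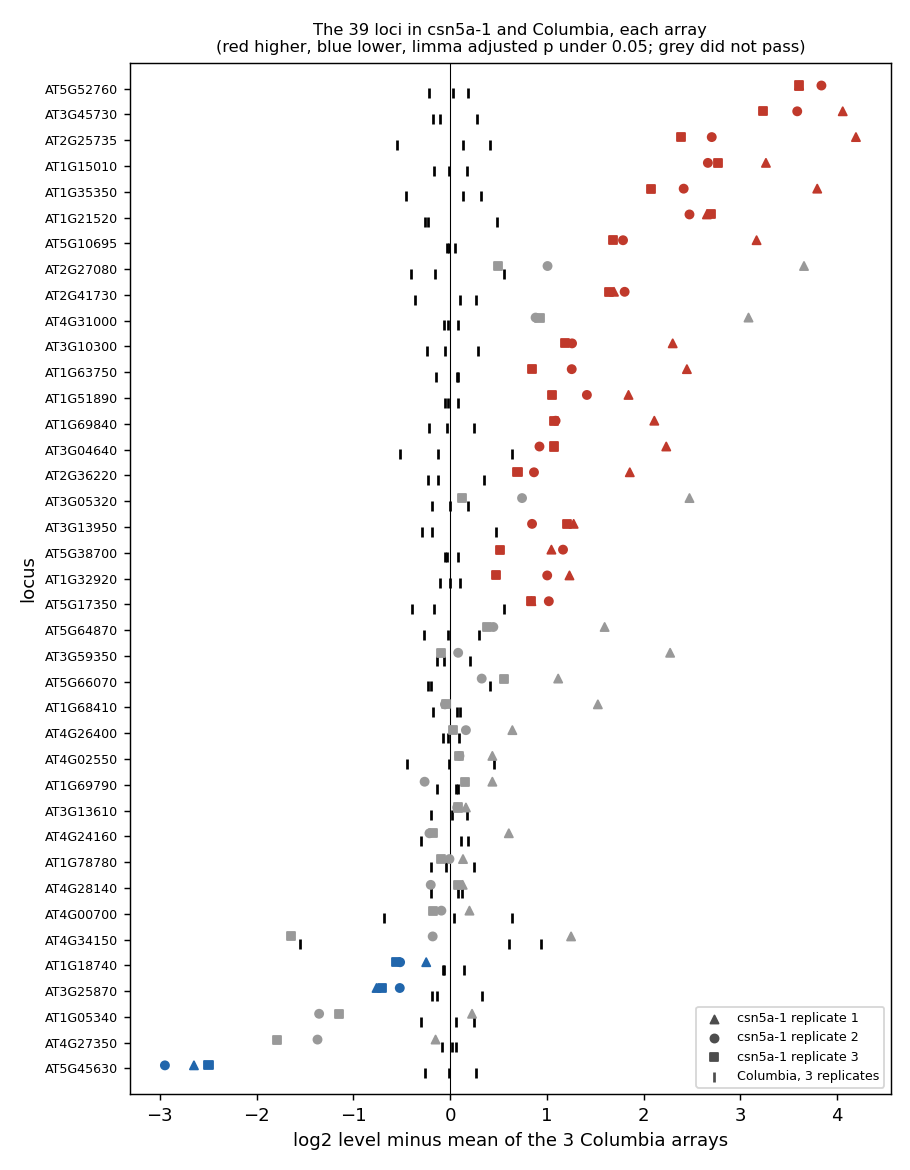
Log2 level of the 39 loci in the 3 csn5a-1 arrays (symbols by replicate) and the 3 Columbia arrays (ticks), minus the mean of Columbia; red and blue loci were higher and lower at a limma adjusted p under 0.05, grey ones did not pass. Replicate 1 (triangles) is the highest csn5a-1 array for 32 of the 39 loci.

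AT5G52760, the locus with the largest change with DTT in CSN8, also had the largest change here. Its levels were 6.68, 6.91 and 6.68 in csn5a-1, against 2.86, 3.1 and 3.26 in Columbia, a difference of 3.69 ± 0.14 (SE; limma adjusted p = 6.81e-06). AT3G45730 was next, at 8.37, 7.9 and 7.55 in csn5a-1, against 4.59, 4.21 and 4.14 in Columbia, a difference of 3.63 ± 0.22 (SE; limma adjusted p = 3.96e-05). AT1G21520 was at 6.6, 6.42 and 6.64 in csn5a-1, against 3.69, 4.43 and 3.72 in Columbia, a difference of 2.61 ± 0.2 (SE; limma adjusted p = 0.000116). These are the loci with the 3 highest pooled differences between CSN8 and Wassilewskija over both DTT states, in arrays that chose the loci. AT5G45630, the other locus with a pooled difference of at least 1 log2 in both batches (1.21 and 1.03), went the other way. It was lower in csn5a-1, by -2.7.

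Other loci with large increases in csn5a-1 were below the wild type in CSN8 without DTT. AT2G25735 was at 8.23, 6.74 and 6.42 in csn5a-1, against 4.45, 3.49 and 4.17 in Columbia, a difference of 3.1 ± 0.47 (SE; limma adjusted p = 0.00217). AT1G15010 was at 8.96, 8.36 and 8.46 in csn5a-1, against 5.69, 5.53 and 5.87 in Columbia, a difference of 2.9 ± 0.18 (SE; limma adjusted p = 4.12e-05), with CSN8 minus Wassilewskija of -4.26 and -3.17. AT1G35350 was at 9.11, 7.73 and 7.39 in csn5a-1, against 4.86, 5.64 and 5.45 in Columbia, a difference of 2.76 ± 0.43 (SE; limma adjusted p = 0.00255), with CSN8 minus Wassilewskija of -1.49 and -0.95. The same held for AT5G10695, with a difference of 2.21 ± 0.36 (SE; limma adjusted p = 0.0031), and AT2G41730, with 1.71 ± 0.17 (SE; limma adjusted p = 0.000331). Of the 10 loci at least 1 log2 below Wassilewskija in CSN8 without DTT, 7 were higher in csn5a-1 and 3 did not pass. Of all 630 probe sets with that difference, 114 were higher in csn5a-1, 203 lower and 313 did not pass.

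The 3 loci lower in csn5a-1 were AT5G45630, AT3G25870 and AT1G18740. AT5G45630 was at 3.48, 3.18 and 3.63 in csn5a-1, against 5.87, 6.39 and 6.12 in Columbia, a difference of -2.7 ± 0.17 (SE; limma adjusted p = 4.82e-05). All 3 csn5a-1 arrays were below the lowest Columbia array by more than 2 log2. AT3G25870 differed by -0.66 ± 0.16 (SE; limma adjusted p = 0.017) and AT1G18740 by -0.44 ± 0.13 (SE; limma adjusted p = 0.0326). Of the 10 loci above the wild type with DTT in CSN8, 5 were higher in csn5a-1, AT5G45630 was lower and 4 did not pass. Of all 517 probe sets that met this size, 249 were higher, 91 lower and 177 did not pass, so the count of 5 in 10 is close to that share. Of the other 19, 6 were higher, 2 lower and 11 did not pass, against 3286 higher and 3531 lower of the 21599 probe sets that met neither size.

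The remaining 10 loci that were higher in csn5a-1 changed by 0.9 to 1.58 log2. The largest among them were 1.58 ± 0.3 (SE; limma adjusted p = 0.00592) for AT3G10300 and 1.51 ± 0.37 (SE; limma adjusted p = 0.0166) for AT1G63750. AT1G51890 followed with 1.44 ± 0.19 (SE; limma adjusted p = 0.00126) and AT1G69840 with 1.42 ± 0.28 (SE; limma adjusted p = 0.00761). Of the loci that did not pass, AT2G27080 was at 9.36, 6.71 and 6.2 in csn5a-1, against 6.26, 5.3 and 5.55 in Columbia, and AT4G34150 at 9.74, 8.31 and 6.85 in csn5a-1, against 9.43, 9.1 and 6.94 in Columbia. In AT4G34150 replicate 3 was the lowest array of both groups.

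The csn5a-1 arrays did not sit at one level for these loci. Replicate 1 was the highest of the 3 for 32 of the 39, against 32.6% of all probe sets, and exceeded the mean of the other 2 by a median of 0.65 log2 (-0.04 over all probe sets). The SD among the csn5a-1 arrays had a median of 0.41 for the 39 loci and of 0.14 for all probe sets, and in Columbia of 0.24 and 0.15. Replicate 1 also had the widest gap between the 3′ and 5′ actin controls, 4.95 against 4.56 and 3.93 in replicates 2 and 3, while Columbia had 3.35 to 3.67. The plastid-encoded transcripts had a median of 9.91 in it, against 8.77 and 8.09 in the other csn5a-1 arrays and 9.57 to 9.7 in Columbia. Without this array 19 of the 39 loci were higher and 5 lower, with a median change of 0.74. In that fit 24 of the 39 passed in either direction, against 7221 of all 22746 probe sets. Of all probe sets 16.0% were lower in that fit, and a slightly smaller share was higher. AT1G05340, at 9.84, 8.26 and 8.47 in csn5a-1, against 9.86, 9.67 and 9.31 in Columbia, and AT4G27350, at 8.13, 6.91 and 6.49 in csn5a-1, against 8.34, 8.3 and 8.2 in Columbia, then passed as lower (-1.25 and -1.58), and AT4G31000 as higher (0.9). Without Columbia replicate 2, AT5G17350, AT3G04640, AT1G63750, AT2G36220 and AT1G18740 did not pass (limma adjusted p of 0.0625 to 0.109), and without csn5a-1 replicate 3 AT3G25870 did not (0.0526). Of the 21 calls, 14 were past the threshold under all alternatives that tested the locus.

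The loci with a symbol and the same DTT pattern gave 2 calls of 6 in that comparison, close to the 32.9% of all probe sets called in either direction. Both calls were higher in csn5a-1, against 16.0% of all probe sets, and 6 loci are too few to read against that share. SAG101 was higher in csn5a-1 by 1.49 ± 0.33 (SE; limma adjusted p = 0.0123) and EXLA1 by 2.44 ± 0.77 (SE; limma adjusted p = 0.0453). EXO differed by 1.79 ± 0.61 (SE; limma adjusted p = 0.0591), TET8 by 0.75 ± 0.33 (SE; limma adjusted p = 0.121), CML23 by 0.46 ± 0.18 (SE; limma adjusted p = 0.0858) and CHI by 0.13 ± 0.12 (SE; limma adjusted p = 0.456), none of which passed.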

How the data were processed

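The authors deposited 1 log2 value per probe set and array, which the submitters' processing notes attribute to RMA without naming software in the sources used here. Between 2 arrays the sorted values were 0.016 to 0.076 apart (median) in the csn5a-1 and Columbia set, 0.012 to 0.054 in the set of 8 and 0.472 to 0.534 across sets, so the sets look normalised apart and the main test does not span them. Of 22810 probe sets, 64 controls were left out. Platform annotation gave 1 gene for 13513 probe sets, of which 13484 matched the reference gene table by gene ID or locus; 11933 had no symbol. The members, the gene lists and the comparisons were chosen with earlier results of these data known. Differences were taken within the 2 batches that the labels give. csn5a-1 and Columbia were compared with limma 3.58.1 under R 4.3.3, by lmFit and eBayes on group means, two-sided, with Benjamini-Hochberg adjustment over 22746 probe sets and a threshold of 0.05. In simulated data the fit recovered 62 of 100 changes of 1 log2 and 88 of 100 changes of 2 log2, with 3 false calls. Fewer probe sets were changed there than passed in the data. A locus that did not pass may thus still differ. The halfwidth of the 95% interval was 0.57 log2 at the median of the members and 0.32 at that of all probe sets; the number of arrays limits the precision.

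Loci were named by rank of the smaller change in CSN8 (the 12 highest), by nearness to the thresholds, by size in csn5a-1 (up to 8 a direction), by the extremes of the pooled mutant difference and of the change in Wassilewskija; other members are named where their group is described. Groups by annotated function and a promoter search were planned and are not used here, as the tables used hold neither protein descriptions nor sequences. Redox, heat shock and jasmonate lists were matched by annotation to probe sets for 5 of 17, 6 of 15 and 2 of 11 loci. Their median changes with DTT were 0.84, 0.24 and -0.01 in CSN8 and 0.18, -0.26 and -0.13 in Wassilewskija.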

Additional observations from a re-analysis of the deposited data

Results flagged for a closer look

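In 11 of the 39 loci the 2 signalosome mutants moved in opposite directions relative to their wild types without DTT: every csn5a-1 array was above every Columbia array, with a limma adjusted p under 0.05, and both CSN8 arrays were below both Wassilewskija arrays. The changes in csn5a-1 and in CSN8 were 3.1 and -1.23 for AT2G25735, 2.9 and -3.72 for AT1G15010, 2.76 and -1.22 for AT1G35350 and 2.21 and -2.1 for AT5G10695. They were 1.71 and -3.19 for AT2G41730, 1.58 and -0.87 for AT3G10300, 1.42 and -0.99 for AT1G69840 and 1.41 and -1.87 for AT3G04640. The smallest changes in csn5a-1 were 1.14 and -1.94 for AT2G36220, 0.9 and -0.68 for AT5G17350 and 0.9 and -1.43 for AT1G32920. The difference between the mutants was not tested; the array sets look normalised apart and the wild types differ. Over all probe sets 3.07% showed this combination. The rule subtracts the CSN8 arrays and so favours loci that are low in them: CSN8 was below Wassilewskija without overlap for 25 of the 39 loci, against 21.8% of all probe sets, and the count of 11 is not read against 3.07%. The opposite combination, lower in csn5a-1 and above the wild type in CSN8, occurred for 0 of the 39 loci and 3.65% of all probe sets. The rule favours loci low in CSN8, so the 0 is not read against that share either.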

How the results depend on the processing

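The number of loci that met the thresholds was 38 after quantile normalisation of the 8 arrays, 37 after centring each array on its median and 38 without the dimmest probe sets, of which 37, 36 and 38 were among the 39. In a single batch it was 76 to 320, by construction, since 1 condition fewer applies. The median change with DTT in CSN8 over the 39 loci was 1.37 to 2.05 in the single batches, and the median of CSN8 + DTT minus Wassilewskija + DTT 0.45 to 1.21; the cause of the gap between batches was not tested. In csn5a-1, 18 loci were higher after quantile normalisation and with a variance trend, against 16.5% and 16.0% of all probe sets. After median centring, and with all 14 arrays in one fit, 19 were higher, against 14.9% and 13.7%. When 1 array was left out, 14 to 19 were higher. The share of all probe sets then was at least 11.4% and under the 16.0% of the main fit. The number lower was 1 to 5 over these settings, against 12.4% to 17.7% of all probe sets. With 1 array left out, 16 to 24 of the 39 loci passed in either direction, against 5421 to 7221 of all 22746 probe sets. A limma fit with a replicate block passed 6925 probe sets and 25 of the 39 loci, against 7474 and 21 without it. Deviations of equally numbered arrays correlated with r of 0.0448, 0.0701 and 0.0491, the highest value for each csn5a-1 array. Columbia replicate 3 correlated more with csn5a-1 replicate 2 (0.0638). With r this small and 3 arrays a group, these values cannot decide whether equally numbered arrays belong together. Calls past the threshold in csn5a-1 were lost without Columbia replicate 2 for AT5G17350 (adjusted p = 0.0697), AT3G04640 (0.109), AT1G63750 (0.0625), AT2G36220 (0.0919) and AT1G18740 (0.0681), all in limma. Of these AT1G63750 and no other passed without Columbia replicate 3. AT5G17350 was also lost without csn5a-1 replicate 2 or 3 (at most 0.0725), and AT1G18740 in 7 of 12 alternatives (at most 0.163). AT3G25870 was lost without csn5a-1 replicate 3 (0.0526) and AT1G51890 with all 14 arrays in one fit (0.115). No change of a called locus turned its sign under the 12 alternatives, or the 11 that tested AT5G38700. With 2 arrays a group, values of the 8 arrays show only whether both batches went one way.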
